A study of Mus musculus with 8 samples.

Results

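The genes described here carry pyruvate into the mitochondrion and oxidise it there: the mitochondrial pyruvate carrier, the pyruvate dehydrogenase (PDH) complex with the kinases and the phosphatase that set its activity, pyruvate carboxylase and the enzymes of the tricarboxylic acid (TCA) cycle. They were a named list of 30 genes, and 29 had a probe set among the 20178 tested, 4 PDH kinases and 25 carrier, complex and cycle genes. Mpc2, the partner of Mpc1 in the carrier, was not analysed here, as no probe set carried its symbol. Each gene was represented by its brightest probe set over 8 samples. The rule names genes and uses no measured value, but the list was proposed with earlier results of these data known.

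RNA came from primary mouse embryonic fibroblasts, cells grown out of embryos, and was hybridised to Affymetrix arrays. There were 2 lines, line A (MEF10) and line B (MEF16), each of them sampled without tamoxifen, where the labels give pyruvate kinase as the PKM2 isoform, and with tamoxifen, where they give it as PKM1. Each of the 4 groups held 2 samples, numbered here only to name them. The comparison asks which transcripts differ once cells that make PKM2 make PKM1. No group had tamoxifen without the change of isoform, so the drug and the isoform cannot be told apart. The labels name neither the allele nor the recombinase, give no age or strain, and leave unsaid if replicates came from separate cultures. A p-value here thus reflects only how far these samples scatter, and that scatter may be technical. Values are log2 expression, where a step of 1 is a 2-fold step, and a difference between log2 values is a log2 fold change. A difference was called when limma's p, adjusted by Benjamini-Hochberg over all probe sets tested, was under 0.05.

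Pyruvate kinase makes pyruvate at the end of glycolysis, and pyruvate that enters the mitochondrion through the carrier meets 2 enzymes. The PDH complex turns it into acetyl-CoA, which citrate synthase joins to oxaloacetate, and pyruvate carboxylase turns it into oxaloacetate itself. The PDH kinases switch the complex off by phosphorylating its E1 alpha subunit, and the PDH phosphatases take the phosphate off again. Pdk4 is known for its rise in fasting muscle, heart and liver, where PPAR and FOXO factors act on its gene, and Pdk1 is a known target of the hypoxia factor HIF1. Proliferating fibroblasts in culture take much of their glucose carbon to lactate, and the TCA cycle also serves them as a source of building blocks.

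The labelled cell type was checked first, because other label fields speak of mammary tumors. All 9 fibroblast markers lay above the array median on every array, and 8 of 9 epithelial markers and 4 of 4 endothelial markers lay below it on every array. The remaining epithelial marker lay above it on every array. Of macrophage and blood markers 4 of 7 lay below it on every array and 0 above. The other lists were mixed, with 2 of 6 skeletal muscle, 2 of 4 adipocyte and 2 of 4 neural markers above it on every array and 2 of each below. Samples of a group correlated at 0.9957 (line A without tamoxifen), 0.9975 (line A with), 0.9908 (line B without) and 0.9894 (line B with) over the tested probe sets. The line B pairs were further apart. For the kinases and the genes of the list with the smallest p-values, the value without single arrays is given where leaving out 1 moved it by more than 1.5 times. Of probe sets outside the list, those of 7 of 8 interferon response genes were called higher with tamoxifen over both lines, where 0.843% of all probe sets were. Those of 4 of 9 proliferation genes were called lower, where 0.506% of all probe sets were. All 9 proliferation genes had a change below 0, with a median of -0.49. Of all cell type markers 1 was called in that comparison, the neuronal gene Map2, which fell by 0.38 (adjusted p = 0.0391 in limma), while Tubb3, another neuronal gene, had a change of 0.37 (adjusted p = 0.0815). Whether these changes had a part in those of the genes below was not tested. In bulk RNA, fewer cells of a kind and less RNA per cell cannot be told apart.

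The sequences before the starts of the 4 kinase genes are shown because Pdk4 was the 1 gene of the list that was called with tamoxifen, and Pdk1, Pdk2 and Pdk3 are its close relatives. They are from RefSeq on GRCm38.p6, run 5′ to 3′ on the gene's strand from 250 bases before the start to 50 bases after it, and are the first of the promoters listed for each gene. Capitals mark the letters ACGTG or GCGTG, the core letters known to bind HIF, on either strand.

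Pdk4, chr6:5496229-5496528, minus strand: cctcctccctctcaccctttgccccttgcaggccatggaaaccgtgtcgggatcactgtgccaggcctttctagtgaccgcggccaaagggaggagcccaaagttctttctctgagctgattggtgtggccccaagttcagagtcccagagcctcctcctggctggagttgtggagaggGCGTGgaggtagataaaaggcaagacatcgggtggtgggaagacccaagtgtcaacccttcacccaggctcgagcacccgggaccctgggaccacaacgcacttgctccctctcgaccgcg

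Pdk1, chr2:71872974-71873273, plus strand: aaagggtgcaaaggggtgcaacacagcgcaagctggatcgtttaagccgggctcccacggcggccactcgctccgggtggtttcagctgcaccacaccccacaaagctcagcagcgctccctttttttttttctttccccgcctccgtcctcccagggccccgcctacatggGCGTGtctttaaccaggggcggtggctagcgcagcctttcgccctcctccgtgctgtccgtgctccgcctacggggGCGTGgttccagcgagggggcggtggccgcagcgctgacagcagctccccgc

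Pdk2, chr11:95041322-95041621, minus strand: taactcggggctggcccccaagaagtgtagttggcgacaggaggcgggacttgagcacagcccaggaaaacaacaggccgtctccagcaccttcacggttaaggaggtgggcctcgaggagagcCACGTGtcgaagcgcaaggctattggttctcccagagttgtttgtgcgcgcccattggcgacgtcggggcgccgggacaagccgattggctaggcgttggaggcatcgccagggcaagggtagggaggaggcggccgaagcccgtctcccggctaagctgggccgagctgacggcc

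Pdk3, chrX:93832101-93832400, minus strand: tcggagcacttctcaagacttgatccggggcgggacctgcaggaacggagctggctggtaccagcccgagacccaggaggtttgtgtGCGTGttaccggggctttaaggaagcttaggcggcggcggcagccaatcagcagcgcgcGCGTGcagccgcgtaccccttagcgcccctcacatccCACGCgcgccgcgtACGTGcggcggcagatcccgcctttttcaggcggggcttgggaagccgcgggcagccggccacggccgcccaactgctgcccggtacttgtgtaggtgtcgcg

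The Pdk4 window held GCGTG once, its first base 71 bases before the start (position -71). Pdk1 held it at -78 and -2. Pdk3 held it at -163, -104 and, on the other strand, -67, and ACGTG at -53. In Pdk2 the letters ACGTG overlapped on both strands as CACGTG, from -126. Of all 6 kinase promoters listed, ACGTG was in 2 and GCGTG in 3, and the second promoters of Pdk1 and Pdk2 held neither. Such short words are common: ACGTG was found in 19.6% and GCGTG in 32.4% of all 32851 promoters of the same length. The FOXO word GTAAACA was in 0 of 6 kinase promoters and in 3.65% of all promoters, and the core of the interferon-stimulated response element in 0 of 6 and in 3.44%. Across the list, 36 promoters of 27 genes were found, with a median GC content of 61.5% against 52.7% over all promoters and a median of 21 CpG pairs against 7. Of these 36 promoters, ACGTG was in 13 and GCGTG in 20, counts that include overlapping promoters of Ogdh, so neither word was particular to the kinases. The oestrogen-related receptor word AAGGTCA was found for Ogdh and Sdhd, and in 4.72% of all promoters. All words were searched on both strands and were chosen after the expression values were known. A match describes letters and not a bound site.

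Among the PDH kinases, Pdk4 was higher with tamoxifen in both lines. In line A its log2 expression was 8.72 and 8.73 without tamoxifen and 9.13 and 9.16 with it. In line B it was 8.58 and 8.35 without and 8.75 and 8.73 with tamoxifen. Within each line both treated samples lay above both untreated ones, but the treated samples of line B lay at the level of the untreated samples of line A, so the 4 and 4 samples pooled overlapped. Over both lines Pdk4 rose by 0.34 (SE 0.07, 95% interval 0.18 to 0.50, n = 8), which is 1.27-fold, and limma gave an adjusted p of 0.0496. Of all probe sets tested, 1.35% were called in this comparison and 0.843% were called higher. Separation within each line in the higher direction held for 4.55% of all probe sets tested.

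The call of Pdk4 lay at the edge of the threshold. With only the probe sets that carry 1 symbol its adjusted p in limma was 0.0504, and across 18 alternatives it ranged from 0.00218 to 0.4 and was above the threshold in 12. Without any 1 of the 4 line A arrays the adjusted p was 0.198 to 0.25, and without replicate 2 of line B without tamoxifen it was 0.141. Without either treated array of line B it was 0.0634 or 0.0658. The size of the change was between 0.31 and 0.40 in all 18 alternatives. From the fit of the 4 group means the change was 0.42 in line A (SE 0.10, adjusted p = 0.165 in limma) and 0.27 in line B (SE 0.10, adjusted p = 0.896). Fitted on the line A samples alone, without those of line B, Pdk4 was called (adjusted p = 0.0282 in limma). That fit called 550 of all 20178 probe sets, against 101 in line A from the 4 group means. The line B change was 0.16 without replicate 2 of the untreated pair and 0.38 without replicate 1.

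The other PDH kinases did not pass the test over both lines. Pdk1, the kinase that also phosphorylates a site of E1 alpha the others leave alone, had values of 7.58 and 7.71 without and 7.94 and 7.67 with tamoxifen in line A, where the groups overlapped. All 4 line B samples read 7.58. The 2 line B samples with tamoxifen held the identical value 7.5766, and 5 of the 8 arrays lay within 0.005 of each other, which was true of 1 of the 20178 tested probe sets, that of Pdk1. Its change over both lines was 0.08 (SE 0.08, 95% interval -0.10 to 0.25, adjusted p = 0.831 in limma). It ranged from 0.01 to 0.12 without 1 array, lowest without replicate 1 of line A with tamoxifen.

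Pdk2, the most widely expressed of the family, had values of 7.73 and 7.43 without and 7.61 and 7.60 with tamoxifen in line A. In line B it had 7.57 and 7.64 without and 7.92 and 7.46 with the drug, so that the treated pair of line B spanned nearly the whole range. The change over both lines was 0.05 (SE 0.10, 95% interval -0.18 to 0.28, adjusted p = 0.922), and it was -0.05 or 0.14 without replicate 1 or 2 of line B with tamoxifen. Pdk3, the kinase best known from testis and brain, read 9.83 and 9.93 without and 10.08 and 9.95 with tamoxifen in line A, where all treated samples were higher. Line B samples of Pdk3 were 9.94 and 9.64 without and 9.74 and 9.88 with tamoxifen, and overlapped. The change of Pdk3 over both lines was 0.08 (SE 0.08, 95% interval -0.11 to 0.26, adjusted p = 0.849), and 0.02 or 0.15 without replicate 2 or 1 of line B without tamoxifen. The median change of the 4 kinases was 0.08, with all 4 values above 0, against a median of -0.01 over all probe sets tested.

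**Figure D1:**
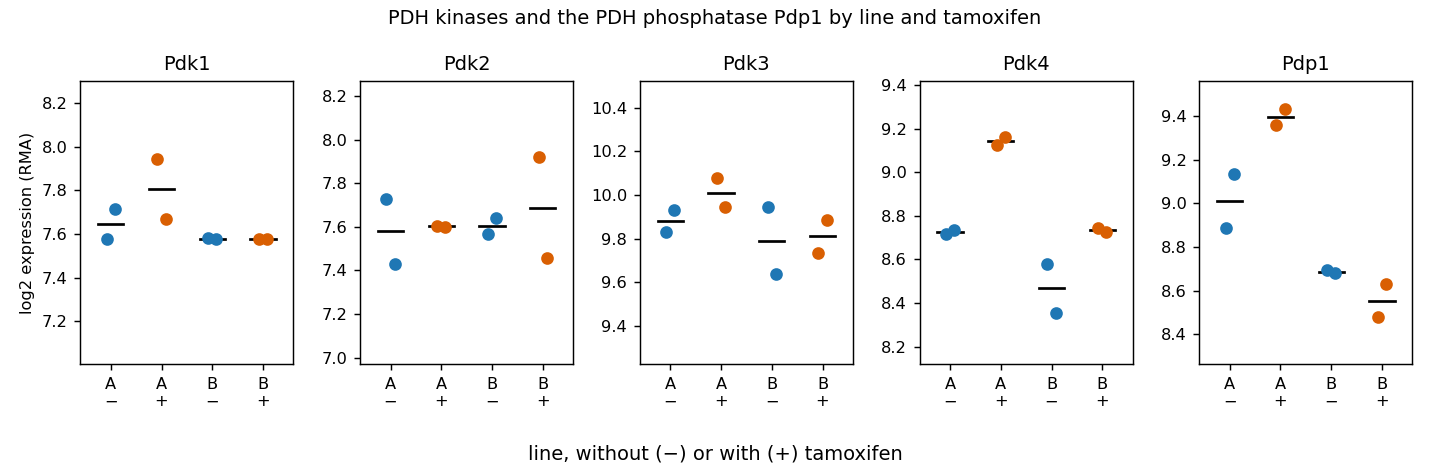
Log2 expression of the 4 PDH kinases and of the phosphatase gene Pdp1 in each sample, by line (A or B) and without (−) or with (+) tamoxifen. Points are samples, 2 per group, bars are group means, and every panel spans the same number of log2 units. Pdk4 was higher with tamoxifen in each line, the 4 line B values of Pdk1 coincide at 7.58, and Pdp1 was lower in line B.

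None of the 25 carrier, complex and cycle genes passed the test with tamoxifen over both lines. Their changes ran from -0.40 to 0.19, with 13 above 0 and 12 below, and their median was 0.01 (-0.03 to 0.06 without 1 array) against -0.01 over all probe sets tested. At an unadjusted p under 0.05, limma counted 2 of the 29 measured genes, Pdk4 and Idh2, against 9.89% of all probe sets. None of the 29 had its 4 treated samples all above or all below its 4 untreated ones, which held for 5.35% of all probe sets. The standard errors of the 29 genes ran from 0.06 to 0.16, which sets the size of change that these arrays could show.

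At the mitochondrial membrane, Mpc1, a subunit of the pyruvate carrier, read 9.08 and 9.52 without and 9.53 and 9.64 with tamoxifen in line A. In line B the carrier gene read 9.41 and 8.87 without and 9.04 and 9.42 with the drug. Both treated samples of line A were above the untreated ones, narrowly for the closest pair, while the line B groups overlapped. Over both lines the change was 0.19 (SE 0.14, 95% interval -0.13 to 0.50, adjusted p = 0.76 in limma). It was 0.08 without replicate 1 of line A without tamoxifen and 0.32 without replicate 1 of line B without tamoxifen.

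The 5 PDH complex subunit genes changed little and none was called. Pdha1 (the E1 alpha subunit, the target of the kinases) changed by -0.10 (95% interval -0.36 to 0.15) and Pdhb (E1 beta) by 0.07 (-0.22 to 0.35). Dlat, the E2 acetyltransferase, changed by -0.02 (-0.16 to 0.12), the narrowest interval of the 5. Dld, the E3 dehydrogenase that the 2-oxoglutarate complex shares, had the brightest probe set of the list, 11.47 and 11.57 without and 11.50 and 11.57 with tamoxifen in line A, and 11.56 and 11.36 without and 11.47 and 11.72 with it in line B. Both lines overlapped for Dld, whose change was 0.08 (-0.11 to 0.26). Pdhx, the protein that anchors E3 in the complex, changed by 0.07 (-0.12 to 0.26).

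Pcx, which encodes pyruvate carboxylase, had the dimmest probe set of the list. Its values were 6.91 and 6.87 without and 6.88 and 6.77 with tamoxifen in line A, and 6.81 and 6.96 without and 7.04 and 6.94 with it in line B. All lay below the array medians of 7.17 to 7.24, a range in which a probe set understates a change. The groups overlapped in both lines and the change was 0.02 (SE 0.07, 95% interval -0.14 to 0.18).

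In the TCA cycle, 7 of 17 genes had a change above 0 and 10 below it, with a median of -0.01 and no call. Idh2, the NADP-linked isocitrate dehydrogenase of mitochondria, had the largest change in size of the whole list. It read 9.29 and 9.21 without and 8.86 and 8.89 with tamoxifen in line A, and 9.04 and 9.58 without and 9.28 and 8.47 with it in line B. In line A both treated samples were lower, and in line B the treated samples lay on either side of the lower untreated one. The change over both lines was -0.40 (SE 0.16, 95% interval -0.76 to -0.05), with an unadjusted p of 0.0307 and an adjusted p of 0.408 in limma. Without replicate 2 of line B with tamoxifen it was -0.24 and without replicate 1 it was -0.56, neither of them called. Its change in line B was -0.43 (SE 0.25, adjusted p = 1), and -0.03 or -0.83 without the same arrays. With the leading axis of variation within groups as a covariate, an alternative chosen after seeing the data, Idh2 was called at the same change (SE 0.07, adjusted p = 0.0066 in limma). That axis was computed from these same samples, so a smaller SE is built in for a gene that lies on it, as Idh2 did. The covariate called 1007 of all 20178 probe sets, against 272 without it, so this call adds no separate evidence.

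Cs, citrate synthase, which opens the cycle, read 11.36 and 11.16 without and 11.02 and 10.98 with tamoxifen in line A. Its line B values were 11.17 and 11.35 without and 11.33 and 10.85 with tamoxifen. As for Idh2, line A was separated and line B overlapped, and the change of Cs was -0.22 (SE 0.10, 95% interval -0.45 to 0.02, adjusted p = 0.549). It was -0.32 or -0.13 without replicate 1 or 2 of line B with tamoxifen. Sucla2, the subunit that makes succinyl-CoA ligase form ATP, read 10.48 and 10.60 without and 10.70 and 10.78 with tamoxifen in line A, and 10.68 and 10.43 without and 10.66 and 10.62 with it in line B. The change of Sucla2 was 0.14 (SE 0.08, 95% interval -0.02 to 0.31, adjusted p = 0.601), with line A separated upwards and line B overlapping. It ranged from 0.11 to 0.20 without 1 array, the ends being those without replicate 2 and 1 of line B without tamoxifen.

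The remaining cycle genes lay nearer to 0. Of the NAD-linked isocitrate dehydrogenase, Idh3a, Idh3b and Idh3g changed by -0.01, 0.01 and -0.01. The 2-oxoglutarate dehydrogenase genes Ogdh (E1) and Dlst (E2) changed by -0.13 and -0.06, and Suclg1 and Suclg2, the other succinyl-CoA ligase subunits, by 0.06 and 0.00. Of succinate dehydrogenase, the flavoprotein gene Sdha changed by -0.09, the iron-sulphur protein gene Sdhb by 0.12, and the membrane anchor genes Sdhc and Sdhd by -0.02 and 0.04. Fh1 (fumarase) changed by 0.02, and the malate dehydrogenases Mdh1 (cytosol) and Mdh2 (mitochondria) by 0.03 and -0.09. The smallest adjusted p of these 14 genes in limma was that of Sdhb, 0.808.

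**Figure D2:**
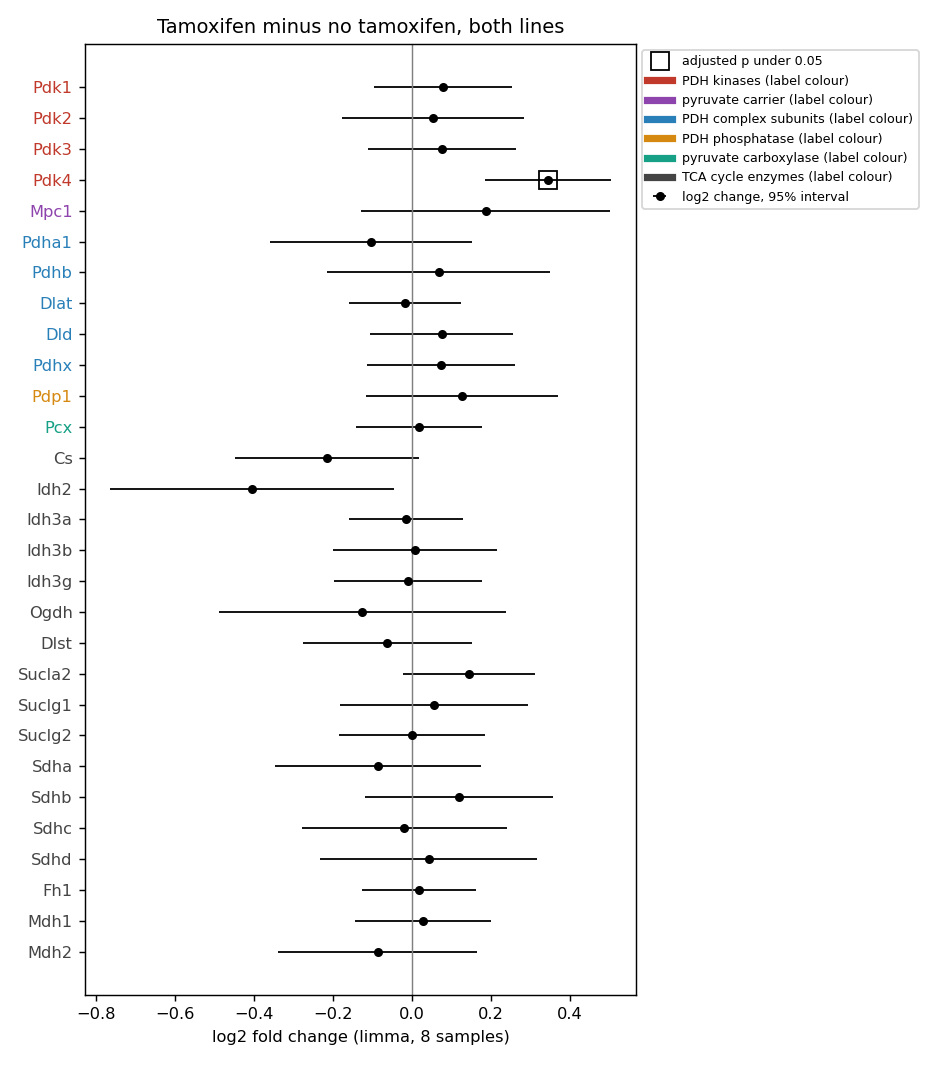
Log2 fold change with tamoxifen over both lines for the 29 measured genes, 4 treated against 4 untreated samples with the line as a covariate in limma. Points are estimates, bars are 95% intervals, and label colours give the role. Only Pdk4, at 0.34, carries the square of a call, and Idh2, at -0.40, is the only other gene whose interval leaves out 0.

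Taken line by line, none of the 29 genes was called with tamoxifen in limma. In line A 0.501% of all probe sets were called and in line B 0.0198%. Unadjusted p-values under 0.05 were counted for Pdk4, Pdp1 and Sdhb in line A, 3 of 29 against 8.13% of all probe sets, and for Pdk4 in line B, 1 of 29 against 4.81%. In line A, 13 of 29 genes had both treated samples above both untreated ones and 2 had both below, where 21.3% and 26.2% of all probe sets did. In line B the counts were 1 higher and 5 lower, against 12% and 12.8% of all probe sets. For the 25 carrier, complex and cycle genes the median change was 0.03 (line A, 0.00 to 0.08 without 1 array) and -0.08 (line B). Over all probe sets the medians were -0.02 and -0.01.

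Of the 17 TCA cycle genes, 15 had a change below 0 in line B and 2 above. That leaning rested on 1 array: without replicate 2 of line B with tamoxifen the median of the 25 genes in line B was 0.08, and without replicate 1 it was -0.20. In line A, 11 of the 17 lay above 0 and 6 below.

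Sdhb had the third smallest p in line A. Its values were 8.44 and 8.75 without and 8.998 and 8.88 with tamoxifen in line A, and 8.96 and 8.96 without and 8.91 and 8.79 with it in line B. Both treated samples were higher in line A and both lower in line B, where all 4 values lay above those of the untreated line A samples. The change was 0.35 in line A (SE 0.12, 95% interval 0.07 to 0.62, adjusted p = 0.445 in limma), and the change in line B minus that in line A was -0.46 (SE 0.17, adjusted p = 1). Without replicate 1 of line A without tamoxifen these were 0.19 and -0.30, and without replicate 2 they were 0.51 and -0.61. Idh3g, the regulatory gamma subunit, read 9.95 and 10.08 without and 10.16 and 10.16 with tamoxifen in line A and 10.17 and 10.23 without and 10.15 and 9.93 with it in line B. It too was separated upwards in line A and downwards in line B, with a difference between the lines of -0.30 (SE 0.15, adjusted p = 1). Its change in line B was -0.16 (SE 0.10, adjusted p = 1). Without replicate 1 of line B with tamoxifen the difference and the change were -0.41 and -0.27, and without replicate 2 they were -0.20 and -0.06.

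The same opposite separation held for Pdp1, Pdhx and Fh1, 5 genes of 29 in all, against 1.47% of all probe sets tested. The reverse pattern, lower in line A and higher in line B, was found for 0 of the 29 genes and for 2.09% of all probe sets. The difference between the lines was called for 0 of all 20178 probe sets in limma, and for 2.77% at an unadjusted p under 0.05, among them Pdp1 and Sdhb. The changes in the 2 lines, which share no sample, correlated over the 29 genes at 0.427 (Pearson's r) and 0.243 (Spearman's rho). These genes share 8 arrays and are not independent, so the values are a description. Both changes were above 0 for 7 genes and below 0 for 8, 12 were above 0 in line A and below it in line B, and 2 the other way.

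**Figure D3:**
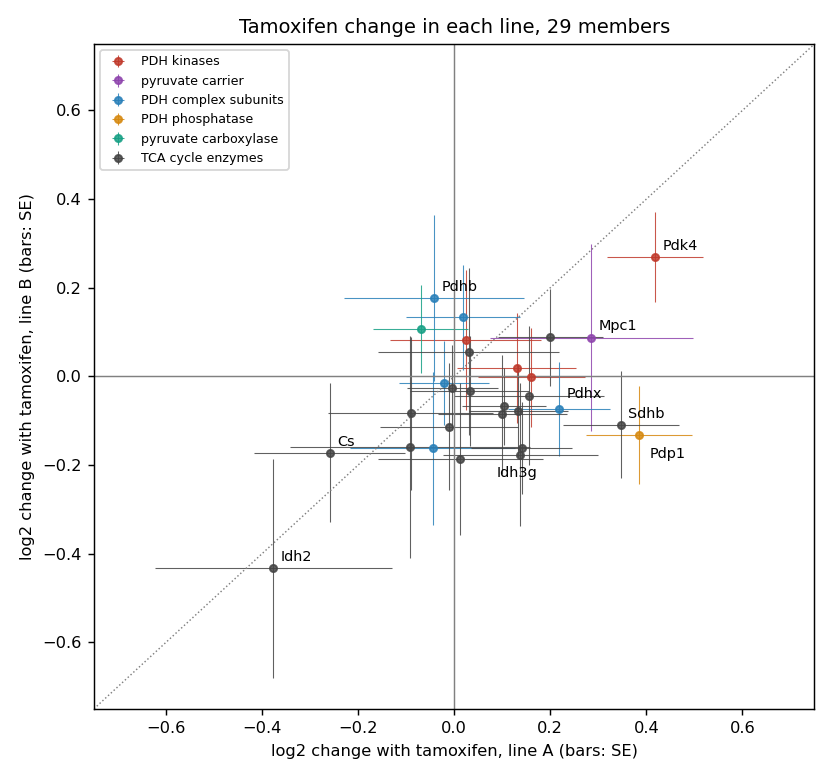
Log2 change with tamoxifen in line A (horizontal) and line B (vertical) for the 29 genes, coloured by role, with standard errors from limma as bars and a dotted line of equal change. Pdk4 lies to the upper right at 0.42 and 0.27, Idh2 to the lower left at -0.38 and -0.43, and Pdp1 and Sdhb are higher in line A and lower in line B.

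Between the lines, Pdp1, the catalytic subunit of the phosphatase that switches the PDH complex on, was lower in line B. It read 8.89 and 9.14 without and 9.36 and 9.43 with tamoxifen in line A, and 8.69 and 8.68 without and 8.48 and 8.63 with it in line B. All 4 line B samples lay below all 4 line A samples, which held for 1.9% of all probe sets tested in that direction. Over both treatments the difference, line B minus line A, was -0.58 (SE 0.11, 95% interval -0.83 to -0.34, adjusted p = 0.0281 in limma). Of all probe sets 1.46% were called between the lines and 0.724% were called lower in line B.

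With tamoxifen the difference in Pdp1 was -0.84 (SE 0.11, 95% interval -1.09 to -0.59, adjusted p = 0.0195), or 1.79-fold lower, where 0.52% of all probe sets were called. Without tamoxifen it was -0.32 (SE 0.11, adjusted p = 0.691), where 0.322% were called. Tamoxifen itself went with a Pdp1 change of 0.38 (line A, SE 0.11, adjusted p = 0.284) and of -0.13 (line B, SE 0.11, adjusted p = 1), and the difference of these, -0.52 (SE 0.16, 95% interval -0.87 to -0.16), had an unadjusted p of 0.00966 and an adjusted p of 1 in limma. Over both lines Pdp1 changed by 0.13 (SE 0.11, adjusted p = 0.797). Without replicate 1 or 2 of line A without tamoxifen the line A change was 0.26 or 0.51 and the untreated difference between the lines -0.45 or -0.20. The change over both lines ranged from 0.02 without the first of these to 0.21 without replicate 1 of line B with tamoxifen. The call over both treatments was lost in 7 of 18 alternatives, at adjusted p of up to 0.149. Single arrays that ended it were replicate 2 of line A without tamoxifen and every array with tamoxifen, and the difference was then -0.50 to -0.58. The call with tamoxifen was lost in 6 of 18, at adjusted p of up to 0.283, among them the fits without any 1 of the 4 treated arrays.

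Pdk4, which acts against Pdp1 on the same subunit, was also lower in line B, by values that did not pass. The difference was -0.33 over both treatments (SE 0.07, 95% interval -0.49 to -0.17, adjusted p = 0.0537 in limma), -0.26 without tamoxifen (SE 0.10, adjusted p = 0.834) and -0.41 with it (SE 0.10, adjusted p = 0.226). The untreated difference was -0.37 or -0.15 without replicate 1 or 2 of line B without tamoxifen. Within each treatment both line B samples lay below both line A samples, while pooled over treatments the samples overlapped. Most of the 18 alternatives did not call Pdk4 over both treatments. It was called with quantile normalization again, with array weights and with the covariate for the leading axis, where the adjusted p in limma was lowest, 0.0133. That covariate, computed from these same samples, called 741 of all 20178 probe sets, against 295 without it.

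Markers of another cell type differed along with these values. All 7 macrophage and blood markers measured were higher in line B, with a median difference of 0.51, and 3 passed: Lyz2 by 1.83, Tyrobp by 0.73 and Adgre1 by 0.59. The mean level of the 7 on an array was 6.24 to 6.47 in line A and 6.85 to 7.01 in line B, below the array medians, while Lyz2 averaged over line B lay above them. No marker was at 0, as these log2 values have no zero. The other lists were mixed or close to 0. Of 4 adipocyte markers 2 were higher and 2 lower, with Fabp4 called (-0.53), and of 9 fibroblast markers 2 were higher and 7 lower, with Thy1 called (0.57). Of 6 skeletal muscle markers 5 were higher and 1 lower, with Acta1 called (0.60), and of 4 neural markers 1 was higher and called (Tubb3, 0.85) and 3 were lower, with Map2 called (-0.78). None of 9 epithelial and 4 endothelial markers was called. The part of such cells in the values of Pdp1 and Pdk4 was not tested.

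The other genes of the list gave no call between the lines. At an unadjusted p under 0.05, limma counted 2 of 29 over both treatments (8.15% of all probe sets), 4 of 29 without tamoxifen (5.13%) and 2 of 29 with it (6.67%). The TCA cycle genes were close together in both lines, with differences over both treatments of -0.09 to 0.17 and a median of 0.02 against 0.02 over all probe sets. Suclg2, the subunit that makes succinyl-CoA ligase form GTP, was at the upper end of them. It read 9.50 and 9.69 without and 9.67 and 9.59 with tamoxifen in line A and 9.75 and 9.85 without and 9.91 and 9.61 with it in line B, a difference of 0.17 (SE 0.08, 95% interval -0.02 to 0.35, adjusted p = 0.68). It ranged from 0.11 to 0.23 without 1 array, the ends being those without replicate 1 and 2 of line B with tamoxifen. Both untreated line B samples were above both untreated line A samples, and the treated ones overlapped. Without tamoxifen 16 of 17 cycle genes had a difference above 0, with a median of 0.06 against 0.01 over all probe sets. With tamoxifen 6 of 17 did, with a median of -0.02 against 0.02. The share of all probe sets above 0 was not counted, and the 17 genes share their arrays, so these signs are not independent.

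Without tamoxifen, 8 of the 29 genes had both line B samples above both line A samples and 2 had both below, against 16.9% and 11.7% of all probe sets. Sdhb had the smallest p there, 0.37 higher in line B (SE 0.12, 95% interval 0.09 to 0.64, unadjusted p = 0.0148, adjusted p = 0.633 in limma). It was 0.21 or 0.52 without replicate 1 or 2 of line A without tamoxifen. With tamoxifen the counts were 1 above and 10 below, against 22.3% and 15.2%. Among the 10 were Mpc1 (-0.35), Pdk4 and Pdk1. The leaning depended on single arrays. With tamoxifen the median difference of the 25 carrier, complex and cycle genes was -0.04, and it ranged from -0.22 to 0.055 without 1 array. The Pdk1 difference was -0.23 (SE 0.11, 95% interval -0.48 to 0.02, adjusted p = 0.805), and -0.09 or -0.37 without replicate 1 or 2 of line A with tamoxifen.

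**Figure D4:**
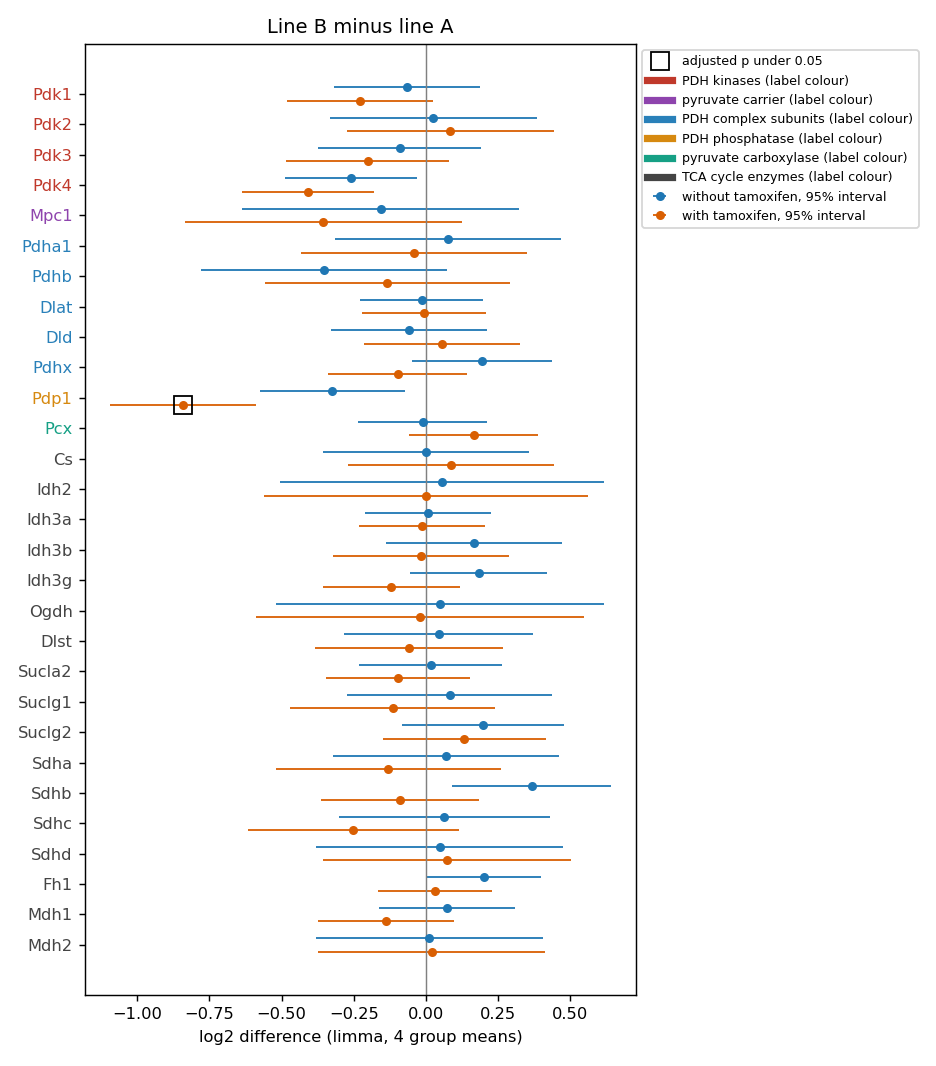
Line B minus line A in log2 expression for the 29 genes, without (blue) and with (orange) tamoxifen, from limma's fit of the 4 group means. Points are estimates and bars are 95% intervals. Pdp1 with tamoxifen, at -0.84, carries the square of a call, and the blue points of the cycle genes lie mostly above 0 and the orange ones closer to it or below.

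The spread between replicates set much of what could be seen in line B. In the treated pair of line B, 24 of the 29 genes were lower in replicate 2 than in replicate 1, 4 were higher and Pdk1 was equal. The share of all probe sets lower in replicate 2 was not counted. The array median was 7.17 in replicate 1 and 7.24 in replicate 2. The median size of the difference was 0.25 for the list against 0.15 over all probe sets, and 14 of the 29 genes differed by more than 0.25, where 28.1% of all probe sets did. Idh2 (-0.80), Ogdh (-0.77), Sdhd (-0.60) and Pdha1 (-0.57) fell furthest apart. In the other groups the median difference of the list was close to that of all probe sets, 0.11 and 0.11 in line A without tamoxifen, 0.07 and 0.08 in line A with it, and 0.15 and 0.15 in line B without it.

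Under the numbering used here, the untreated pair of line B had the opposite sign for 20 of the genes. Idh2 was 0.54, Ogdh 0.40 and Mdh2 0.35 higher in replicate 2, and Mpc1 was lower (-0.55). Pdhb was lower in replicate 2 of both pairs (-0.64 untreated, -0.13 treated). Over the 29 genes the differences of the 2 pairs correlated at -0.775, a description over genes that share the arrays. Replicates were numbered only to name them, so the sign of this value carries no meaning. It would turn if 1 pair were numbered the other way. One axis held 62.1% of the variation within groups over all probe sets, and the share of a gene's own variation on it had a median of 43.0% in the list and 40.5% over all probe sets. It was 98.5% for Mdh2, 98.3% for Dld, 91.0% for Idh2 and 89.3% for Mpc1, but 35.8% for Pdk4 and 43.0% for Pdp1. What this axis stands for was not tested.

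**Figure D5:**
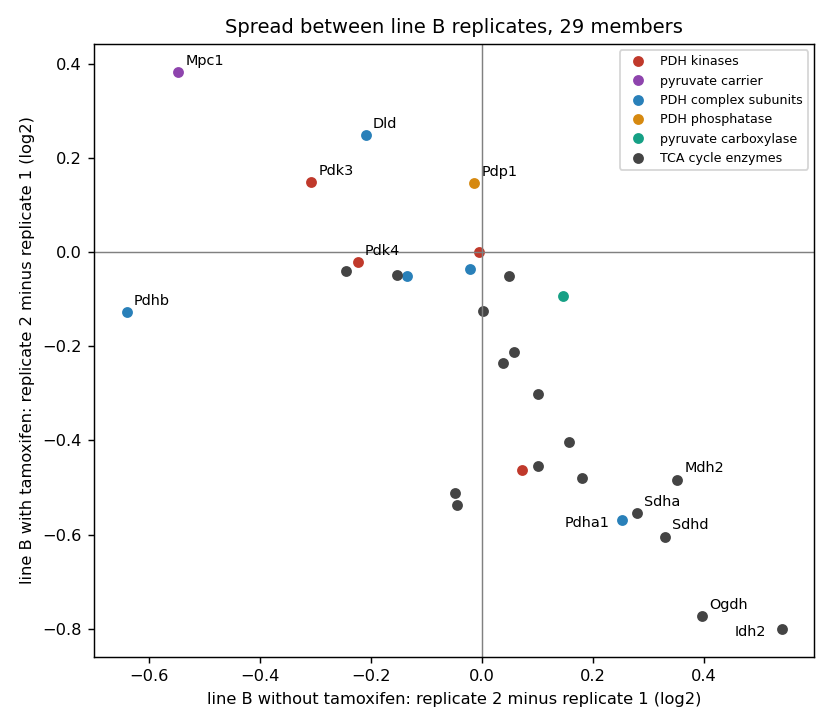
Replicate 2 minus replicate 1 in log2 expression for the 29 genes, in line B without tamoxifen (horizontal) and with it (vertical), coloured by role. Idh2, Ogdh and Mdh2 lie to the lower right and Mpc1 and Dld to the upper left, while Pdk4, at -0.02, differs little in the treated pair. Replicate numbers are only names, so the sides on which genes lie depend on the numbering.

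Genes around the pathway, from lists written for this comparison, gave few calls. Of 9 measured cofactor and assembly factor genes none passed with tamoxifen over both lines, with a median of 0.16 and 7 values above 0. The smallest p values were those of the succinate dehydrogenase assembly factors Sdhaf2 (0.25, SE 0.10, adjusted p = 0.381 in limma), Sdhaf4 (0.35, SE 0.14) and Sdhaf1 (0.23, SE 0.10). Between the lines none of the 9 passed. Pdp2, the second PDH phosphatase, differed by 0.25 (SE 0.07, adjusted p = 0.141), a value above 0 where that of Pdp1 was below it, and Pdpr, the regulatory subunit of the phosphatase, by -0.18 (SE 0.07, adjusted p = 0.515).

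Of 20 genes of substrate supply and exit none passed with tamoxifen, with 16 values below 0 and a median of -0.08. Pck2, the mitochondrial PEP carboxykinase, changed by -0.26, the cytosolic aconitase gene Aco1 by -0.24 and the aspartate-glutamate carrier gene Slc25a13 by -0.17. Between the lines none passed, and Me3, a mitochondrial malic enzyme, differed by -0.26 (SE 0.06, adjusted p = 0.1 in limma). Of 18 mitochondrial import, channel and chaperone genes none passed in either comparison, with medians of -0.02 with tamoxifen and 0.02 between the lines.

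Of 17 genes that act on Pdk4 or share its regulators none passed with tamoxifen over both lines. Foxo1, a factor known to act on the Pdk4 gene, had a value in the direction opposite to that of Pdk4, -0.29 (SE 0.06, adjusted p = 0.0505 in limma). Plin2, a PPAR target of lipid droplets, changed by 0.45 (SE 0.12, adjusted p = 0.141) and Fkbp5, a target of the glucocorticoid receptor, by -0.34 (SE 0.10, adjusted p = 0.231). Between the lines Foxo1 was the 1 gene of these that passed, lower in line B by 0.42 (log2 difference -0.42, SE 0.06, adjusted p = 0.00748 in limma). There its direction was that of Pdk4, whose difference of -0.33 did not pass. Whether Foxo1 had a part in the values of Pdk4 was not tested.

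Of 17 genes of the HIF1 list, 16 known targets and Hif1a itself, none passed with tamoxifen, with a median of 0.01. Bnip3, a mitophagy receptor, changed by 0.25 and Ero1a, an oxidase of the endoplasmic reticulum, by 0.23. Between the lines Adm, which encodes the peptide adrenomedullin, was the 1 that passed (log2 difference -0.43, SE 0.08, adjusted p = 0.0207), and the prolyl hydroxylase gene Egln3 differed by 0.50 (adjusted p = 0.0711).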

How the data were processed

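Per the labels, the authors ran RMA in Expression Console from Affymetrix (version: not given in the sources used here). That method corrects background, quantile-normalizes arrays and summarises probes, and it compresses changes of dim probe sets. The deposited table holds 1 log2 value per probe set and sample (2.61 to 14.1, the scale RMA writes). Of 35556 probe sets, 21789 carry 1 symbol in the platform annotation, 1621 several and 12146 none.

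For each symbol the brightest probe set by mean of 8 samples was kept, several-symbol ones included, which gave 20178 tests. All 29 measured members have probe sets with 1 symbol. Genes outside the list whose brightest probe set carries several symbols were not used.

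Tests used limma 3.58.1 in R 4.3.3 (lmFit, eBayes) with Benjamini-Hochberg adjustment. Line and tamoxifen entered a model with 5 residual degrees of freedom for effects over both, and the 4 group means one with 4 for the other 5 of the 7 comparisons. The fits were tested on simulated data. The simulated noise was independent between probe sets, and the planted changes were larger than those of the list's genes. The check thus does not cover variation shared between probe sets or changes as small as those reported here.

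The members and lists were chosen with earlier results of these data known. Values in every sample are given for the kinases, called members, the 6 smallest p with tamoxifen over both lines, the 3 smallest p elsewhere, and the brightest and dimmest member. Of other lists up to 3 members are named. Genes named elsewhere were chosen after their values were seen. Alternatives were other scalings, a filter on dim probe sets, other variance models and array weights, other gene representations, other covariates or sample sets, and leaving out each array.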

Additional observations from a re-analysis of the deposited data

Results flagged for a closer look

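For 5 of the 29 genes the samples separated in opposite directions in the 2 lines, with both treated samples of line A above the untreated ones and both treated samples of line B below. The change in line B minus that in line A was -0.52 for the phosphatase gene Pdp1, -0.46 for Sdhb, -0.30 for Idh3g, -0.29 for the PDH complex gene Pdhx and -0.17 for Fh1. In limma's test of the difference itself the adjusted p was 1 for each of the 5, and the unadjusted p was 0.00966 for Pdp1 and 0.0262 for Sdhb. Of all probe sets tested, 1.47% showed this pattern and 2.09% the reverse. In Pdhx and Fh1 the changes were small, 0.22 in line A and -0.07 in line B for Pdhx.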

How the results depend on the processing

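No paired analysis was possible because the labels number no replicates. Counts of the list's genes called, with each change of processing, were as follows. For tamoxifen over both lines the count of 1 became 0 with arrays shifted to a common median, with trend and robust variances, with every probe set on its own, with 1-symbol probe sets alone and with no term for the line, and 2 with the covariate for the leading axis, added after seeing the data. In line A the count of 0 became 1 (Pdk4) with array weights or that covariate, and 2 (Pdk4 and Idh2) with line A samples alone. Between the lines over both treatments the count of 1 became 2 (Pdp1 and Pdk4) with quantile normalization again, array weights or the covariate, and 0 with every probe set on its own or no term for tamoxifen. Between the lines with tamoxifen it became 0 with every probe set on its own or the 4 treated samples alone, and 2 with the covariate. The cause of these differences was not tested. Without 1 array the 3 counts ranged from 0 to 1, 0 to 2 and 0 to 1. The lone sample left in a group is then taken to vary like the others. The median of the 25 non-kinase genes ranged without 1 array from -0.1959 to 0.0791 for tamoxifen in line B, from -0.3087 to 0.0322 for the difference between the lines' effects, and from -0.2196 to 0.055 between the lines with tamoxifen. Pdk2 ranged from -0.0452 to 0.1399 for tamoxifen over both lines, the only named gene that changed sign. With array weights 1040 probe sets were called for tamoxifen over both lines and with every probe set on its own 74, against 272, and in line A 542 and 1 against 101. With the covariate 1007 were called over both lines and 762 in line A, and with line A samples alone 550 in line A. Between the lines the covariate called 741 against 295 over both treatments, and 472 against 105 with tamoxifen. The number of arrays limits the precision, and no detection calls were used.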

Other observations

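Suclg2 was the 1 gene of the list with 2 probe sets. The second read 9.29 and 9.41 without and 9.44 and 9.40 with tamoxifen in line A, and 9.53 and 9.43 without and 9.59 and 9.43 with it in line B. Like the brighter one, it had both untreated line B samples above both untreated line A samples.

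Identical values on at least 2 arrays, as found for Pdk1, occurred in 146 of the 20178 tested probe sets.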
